A study of Mus musculus with 8 samples.

Results

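The regions described here are 1018 of the 11304 listed open-chromatin regions of the mouse hippocampus (9.01%), chosen for being wide and weak and for having few carriers. A member was at least 1200 bp wide, had a mean z score below 50, and had a peak with a z score of at least 30 in only 4 or 5 of the 8 libraries; a library with such a peak is called a carrier. The z score is the authors' own measure of peak strength. The members were therefore chosen by measured values, namely width, mean z score and number of carriers. All 3 were read from the same sequencing reads as the counts below, so widths, z scores and carriers are given as descriptions and support nothing. Hippocampus for all 8 libraries was from male C57BL/6J mice aged 2 months that had been handled for 3 days. For the 4 conditioned libraries, dissection followed contextual fear conditioning by 30 min; this training is a single session in which a chamber is paired with 1 foot shock of 2 s and 1.5 mA. For the 4 control libraries, handled mice received no training, and their tissue was taken at a matching hour. Whole hippocampus was used, so cell types were mixed, and a change in the share of a cell type cannot be told apart from a change within its chromatin.

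Sono-seq reads crosslinked chromatin that was sonicated and sequenced without an antibody. Chromatin that is loosely packed breaks more easily, so reads gather at open sites. Open sites at active promoters and enhancers are usually short, because a few nucleosomes are displaced there, whereas broad low signal is also seen where long stretches of chromatin are moderately accessible, and at repeated sequence. The hippocampus is needed to form memories of a context, and neurons activated by such learning switch on immediate early genes and open some of their regulatory sites. No genome or gene annotation of mm9, the build of these files, was used here, so members are named by position alone, with no gene and no sequence.

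Total counts over the 11304 regions ran from 36786183 to 83233550 per library. The 50 regions with the highest counts held most of them and included 0 members. Outside those 50, the libraries held 2013469 to 14605841 counts. Control replicates 1 and 3 stood apart there, with 2217162 and 2013469 counts, against 4503240 to 14605841 in the other 6 libraries. The comparison of the groups, the spread and the carriers are therefore also given without these 2 libraries. The labels number the replicates without naming animals, so p-values measure only how far these libraries differ, which may be technical in part.

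Members spanned 1200 to 4283 bp, with a median of 1561 bp against 858 bp over all regions. Their mean z score ran from 30.8 to just below 50, with a median of 40.1 against 58.9 over all regions. They made up 15.5% of the summed width of all regions. There were 666 members with 4 carriers and 352 with 5.

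The name "few libraries" holds only at that z score. A listed peak of any strength was present in all 8 libraries in 1007 of the 1018 members. Of the 8144 combinations of a member and a library, 54.3% had a highest z of at least 30, a further 19.6% lay from 20 to below 30, and 12 had no listed peak. The 54.3% follows from the choice of members by number of carriers. Peaks are listed down to a z score of 5, and a listed peak was also common over all regions. Of the 11304 regions, 3 (conditioned replicate 4) to 327 (control replicate 1) had none in a given library. A listed peak in nearly every library therefore does not set members apart from other regions. The cut at 30 separated libraries by peak z score. The order of the libraries by scaled counts, given below, was another.

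Carriers were not spread evenly over the libraries. Conditioned replicates 1 to 4 carried 823, 280, 815 and 890 members, and control replicates 1 to 4 carried 468, 612, 178 and 358. Conditioned replicate 2 and control replicate 3 were the lowest of their groups. The libraries were also uneven over all regions, of which controls 1 to 4 carried 24.3%, 88.2%, 25.5% and 74.2% and conditioned replicates 1 to 4 carried 92.9%, 58.6%, 95.01% and 97.7%. Control replicate 1 carried more of the members (46.0%) than of all regions, and each of the other 7 libraries carried a smaller share of members than of all regions. In 679 members (66.7%) more conditioned than control libraries were carriers, against 81.0% of all regions and 85.6% of narrow regions with 4 or 5 carriers. In 72 members (7.07%) there were fewer, against 2.15% of all regions and 1.90% of those narrow regions. The carriers formed 94 of the 126 possible sets of 4 or 5 libraries, and the most frequent set, control replicate 2 with conditioned replicates 1, 3 and 4, accounted for only 102 members. All 4 conditioned libraries and no control carried 45 members (4.42%), against 3.18% of narrow regions with 4 or 5 carriers; all 4 controls and no conditioned library carried 0 members and 1 of those narrow regions. Without control replicates 1 and 3, 628 members (61.7%) still had at least 4 carriers.

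Inside the members the listed peaks were long. Peaks listed in these files are at most 950 bp from start to end, and 75.1% to 81.3% of all listed peaks have equal start and end. A peak of at least 900 bp lay in 50.8% to 73.3% of members depending on the library, against 14.6% to 24.1% of all regions and 25.8% to 42.3% of the equally wide regions with 6 or 7 carriers. Listed peaks covered a median of 51.3% (control replicate 3) to 67.3% (control replicate 1) of a member's length. The median was 32.0% to 57.4% in the wide regions with 6 or 7 carriers. In each of the 8 libraries more of a member was covered than of those regions. Wide regions with 8 carriers came closer, with medians of 43.1% (control replicate 3) to 59.5% (conditioned replicate 4). In conditioned replicate 2 they were covered more than members (55.3% against 52.6%).

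Signal also continued beyond the members' edges. In the 5000 bp on each side, listed peaks covered a median of 9.90% to 21.6% of the sequence around members, against 1.5% to 6% around all regions. Around the wide regions with 8 carriers the median was 2.50% to 10.0%. Between 2500 and 5000 bp from the centre, mean coverage was 14.5% over the 8 libraries (10.6% in control replicate 3 to 21.0% in control replicate 1). The same window held 5.21% around wide regions with 6 or 7 carriers and 4.29% around narrow regions with 4 or 5 carriers. Between 5000 and 10000 bp from the centre, coverage around members was 9.53%, against 5.01% over all regions. In each of the 8 libraries the median flank coverage of members was above that of every other group of regions. Coverage was higher to the left than to the right of the centre, with 38.7% and 25.9% between 500 and 1500 bp; this was also seen over all regions (19.6% and 8.48%), and its cause was not tested.

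**Figure D1:**
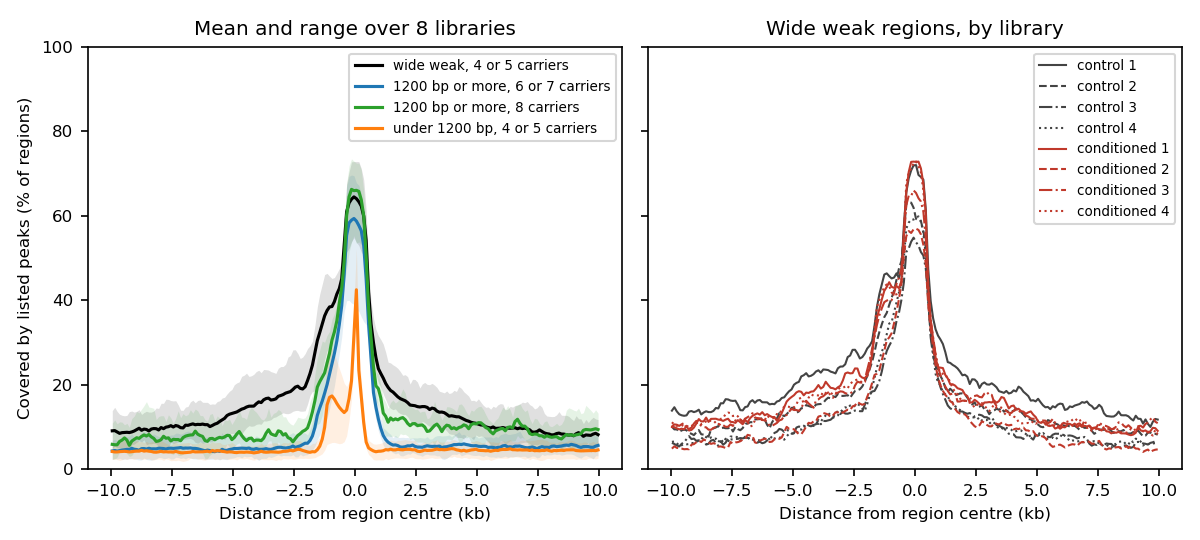
Share of regions covered by a listed peak (percent, y axis) in 100 bp bins by distance from the region's centre (kb, x axis). The left panel gives the mean over 8 libraries as lines and their range as bands for 4 groups of regions, and the right panel gives each library for the wide weak regions (grey, control; red, conditioned). Between 2500 and 5000 bp the mean around the wide weak regions is 14.5%, above that of the other 3 groups, and control replicate 1 is the highest library.

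Members were spread over all 19 autosomes but not in proportion to the other regions. They made up 14.3% of regions on chromosome 3, 14.1% on chromosome 1 and 13.7% on chromosome 14. The lowest shares were 4.71% on chromosome 11, 5.40% on chromosome 19 and 5.41% on chromosome 7. Chromosome 11 had the most listed regions per Mb (7.33) and chromosome 14 the fewest (3.29). Members per Mb ran from 0.268 on chromosome 7 to 0.563 on chromosome 1, and the 3 chromosomes with the highest shares had 3.29 to 4.00 regions per Mb, against 4.69 over all autosomes. Chromosomes are not replicates, and this order is given as a description.

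**Figure D2:**
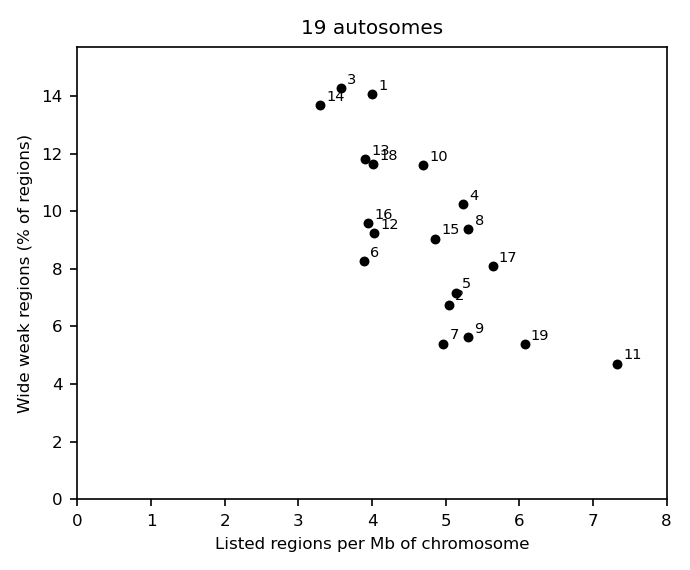
Wide weak regions as a percent of all listed regions (y axis) against listed regions per Mb between the first and last region of the chromosome (x axis), 1 point per autosome, numbered. Chromosomes 1, 3 and 14, with 3.29 to 4.00 regions per Mb, have the highest shares, and chromosome 11, with 7.33, the lowest.

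Members lay apart from other regions. The nearest listed region of any kind was a median of 108 kb away, against 48.5 kb over all regions, 40.6 kb for narrow regions with 4 or 5 carriers and 59.97 kb for wide regions with 6 or 7 carriers. No other region lay within 500 kb of 113 members (11.1%), against 2.87% of all regions. The median gap between neighbouring members was 1499 kb (quartiles 533 and 3206 kb). Another member lay within 50 kb of 114 members (11.2%). That compares with 8.75% of the 1715 wide regions with 6 or 7 carriers measured in the same way, and these shares depend on how many regions each group holds. Of the members, 904 stood alone at this distance, 54 runs held 2 and 2 runs held 3.

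The run of 3 members first in chromosome order lay on chromosome 4, at 22941998 to 22943298, 22971848 to 22973098 and 22998122 to 22999530 (mm9). These 3 members were 1250 to 1408 bp wide, had 4 carriers each, and were carried by different sets of libraries. The last of them had 26.7, 4.96, 5.87 and 3.72 CPM (controls 1 to 4) and 7.34, 2.86, 2.53 and 2.58 CPM (conditioned 1 to 4). CPM, here and below, are counts scaled to 1e6 after TMM scaling, which sets a region against the bulk of regions in its library. Control replicate 1 was the highest library in all 3 of these members.

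How far the members' level differed between libraries depended on the scaling. On the TMM scale, the median member had 11.7, 3.29, 5.29 and 2.83 CPM (controls 1 to 4) and 4.29, 3.09, 2.85 and 1.98 CPM (conditioned 1 to 4). Control replicate 1 was highest and conditioned replicate 4 lowest, a 5.92-fold range, whereas the median over all regions, which TMM scaling holds nearly level, ran from 6.03 to 6.47 CPM. Control replicate 1 was the highest of the 8 libraries in 742 members (72.9%), against 22.9% of all regions. In 873 members (85.8%) its CPM was at least 2 times the median of the other 7 libraries, against 24.5% of all regions. Control replicate 3 was the highest library in 135 members (13.3%), a smaller share than over all regions (15.2%). Conditioned replicate 4 was the lowest library in 354 members (34.8%), against 7.34% of all regions. By z score the order differed. The median highest z over members was 36.7 in conditioned replicate 4, which carried 87.4% of them. It was 29.0 in control replicate 1, which carried 46.0%.

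Scaled to each library's total count, the order of the libraries was another. Per 1e6 counts, the median member then had 3.89, 4.78, 2.69 and 2.92 counts (controls 1 to 4) and 4.58, 3.69, 4.38 and 3.98 counts (conditioned 1 to 4), a 1.78-fold range. The median over all regions had a 5.98-fold range on that scale, with control replicate 1 lowest at 2.15 and conditioned replicate 4 highest at 12.8. Wide regions with 6 or 7 carriers had a 7.91-fold range and narrow regions with 4 or 5 carriers a 5.46-fold range. On that scale the typical member thus varied less between libraries than the typical region. The total used is the sum over the listed regions, most of it in the 50 highest, and is not sequencing depth. Outside those 50 lay 2217162 of 66135693 counts in control replicate 1 and 14605841 of 83233550 in conditioned replicate 4.

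**Figure D3:**
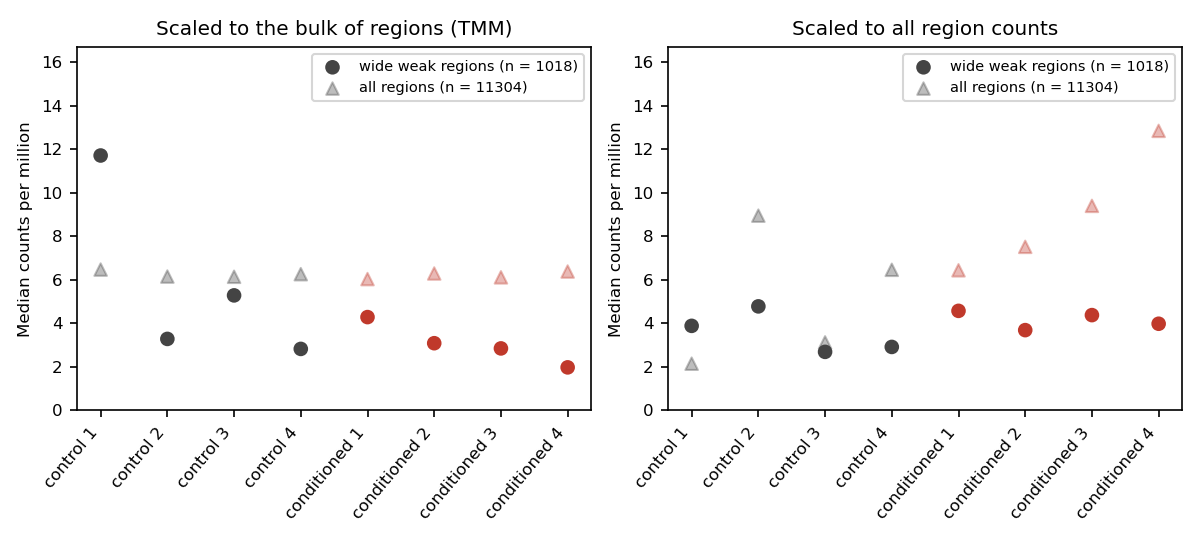
Median CPM (y axis) in each of the 8 libraries (x axis; grey, control; red, conditioned) for the 1018 wide weak regions (circles) and all 11304 regions (pale triangles), after TMM scaling (left) and scaled to all region counts (right). On the left the wide weak regions run from 1.98 to 11.7 and all regions from 6.03 to 6.47; on the right the wide weak regions run from 2.69 to 4.78 and all regions from 2.15 to 12.8.

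A ratio within each library, like TMM, sets members against the bulk of regions. It is therefore no separate check on the choice of scaling. The median member's counts per kb, divided by the median over all regions, was 0.981, 0.263, 0.452 and 0.217 (controls 1 to 4) and 0.365, 0.248, 0.228 and 0.146 (conditioned 1 to 4). In control replicate 1 members were as dense in reads as the typical region, and in the other libraries they had less. The 4 controls averaged 0.478 ± 0.350 and the 4 conditioned libraries 0.247 ± 0.0901 (SD, n = 4). For control replicates 2 and 4 alone it was 0.240. Members held 13.0% of the counts outside the 50 highest regions in control replicate 1 (95% Clopper-Pearson interval 13.0% to 13.1%, counting error only) and 2.99% to 6.81% in the other libraries. The share averaged 7.10% ± 4.14 over controls and 4.35% ± 1.21 over conditioned libraries (SD, n = 4 for either), and 4.28% over control replicates 2 and 4. Since the share is a sum over chosen regions, it was not tested.

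The coefficient of variation (SD over mean of TMM-scaled CPM) over 8 libraries had a median of 0.800 in members and 0.477 over all regions. The precision of the counts is a coefficient of variation of 0.101 at the lowest median count of a library, 99 reads in control replicate 3, and separate libraries would exceed it in any case. The median was 0.525 for narrow regions with 4 or 5 carriers, 0.393 for wide regions with 6 or 7 carriers and 0.340 for wide regions with 8. Among controls the median over members was 0.763, and among conditioned libraries it was 0.460, against 0.523 and 0.344 over all regions. Without control replicates 1 and 3 the median over the remaining 6 libraries fell to 0.479 with the scaling recomputed, and to 0.531 without control replicate 1 alone. With the 8-library scaling the 6 libraries gave 0.478 in members and 0.391 over all regions. Scaled to total counts, members had a median of 0.478 and all regions 0.623, so on that scale members were the less variable of the pair.

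Each of the 4 most variable members had 1 library far above the rest. On chromosome 1 at 130487227 to 130488694, the values were 8.16, 1.76, 31.9 and 1.03 CPM (controls 1 to 4) and 0.629, 0.500, 3.26 and 1.33 CPM (conditioned 1 to 4). Control replicate 3 was far above the rest, and the coefficient of variation was 1.77. The log2 fold change of conditioned over control was -2.89 there (edgeR adjusted p = 0.605), and 0.02 without control replicates 1 and 3. On chromosome 8 at 40990122 to 40991980, control replicate 1 had 22.1 CPM and the other 7 libraries 1.06 to 3.68 CPM. The coefficient of variation there was 1.54. The member on chromosome 3 from 6980189 to 6981439 had its highest value in control replicate 3 (28.1 CPM), and the member on chromosome 7 from 50996163 to 50997682 in control replicate 1 (21.9 CPM). Their coefficients of variation were 1.59 and 1.53.

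The steadiest members had coefficients of variation from 0.137 to 0.187. On chromosome 7 at 134889532 to 134890732, the values were 4.56, 3.91, 4.00 and 2.83 CPM (controls 1 to 4) and 3.97, 3.45, 4.22 and 3.65 CPM (conditioned 1 to 4). The groups overlapped and had the same mean of 3.82 CPM. On chromosome 12 at 71086877 to 71088477, controls had 4.20 to 5.50 CPM and conditioned libraries 3.68 to 4.80 CPM. The other 2 lay on chromosomes 15 (84684601 to 84686751) and 18 (4920081 to 4922337). The log2 fold changes of the 4 lay between -0.22 and 0.14.

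Across members, log2(CPM + 0.5) of 2 libraries had a median Pearson's r of 0.384 over the 28 pairs (0.0894 to 0.634), against 0.682 (0.357 to 0.838) across all regions. The median was lower still in narrow regions with 4 or 5 carriers (0.308) and in wide regions with 4 or 5 carriers and a z score of at least 50 (0.222). Control replicate 1 had r of 0.0894 to 0.520 with the other 7 libraries. These are correlations across regions of the same libraries, and regions are not independent replicates.

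The comparison of trained with untrained mice asks which regions differ in accessibility 30 min after conditioning. No member passed edgeR's quasi-likelihood test, fitted on all 11304 regions with Benjamini-Hochberg adjustment: 0 of 1018 members had an adjusted p below 0.05 (smallest adjusted p = 0.605), against 0% of all regions. At unadjusted p below 0.05 there were 249 members (24.5%), 249 with a lower and 0 with a higher estimate after conditioning. The background over all regions was 6.03% lower and 1.76% higher. The median log2 fold change of the members was -0.92, against -0.05 over all regions, and 920 members (90.4%) were below 0, against 53.6%. The conditioned and control libraries did not overlap in 27 members, all lower (2.65%; background 0.902% lower and 1.5% higher).

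The median moved most when control replicate 1 was the 1 library left out. In that case the members' median was -0.30, and 93 members were lower (9.14%, background 5.75%) and 7 higher (0.688%, background 3.75%) at unadjusted p below 0.05. Without control replicate 3 the median was -0.94 and 180 members (17.7%, background 4.41%) were lower at unadjusted p below 0.05. The number of lower members also moved with other libraries: it was 153 (15.0%, background 3.9%), 149 (14.6%, background 4.19%) and 103 (10.1%, background 3.15%) without conditioned replicates 2, 3 and 4, and 400 (39.3%, background 8.93%) without control replicate 4. The median stayed between -1.17 and -0.73 in these 4 fits. Without both control replicates 1 and 3, the median was 0.07, against 0.02 over all regions, and 457 members (44.9%) were below 0, against 48.5%. At unadjusted p below 0.05 there were then 41 lower (4.03%, background 5.03%) and 22 higher members (2.16%, background 3.34%), and 0 passed at adjusted p below 0.05 in edgeR's test (background 0%).

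**Figure D4:**
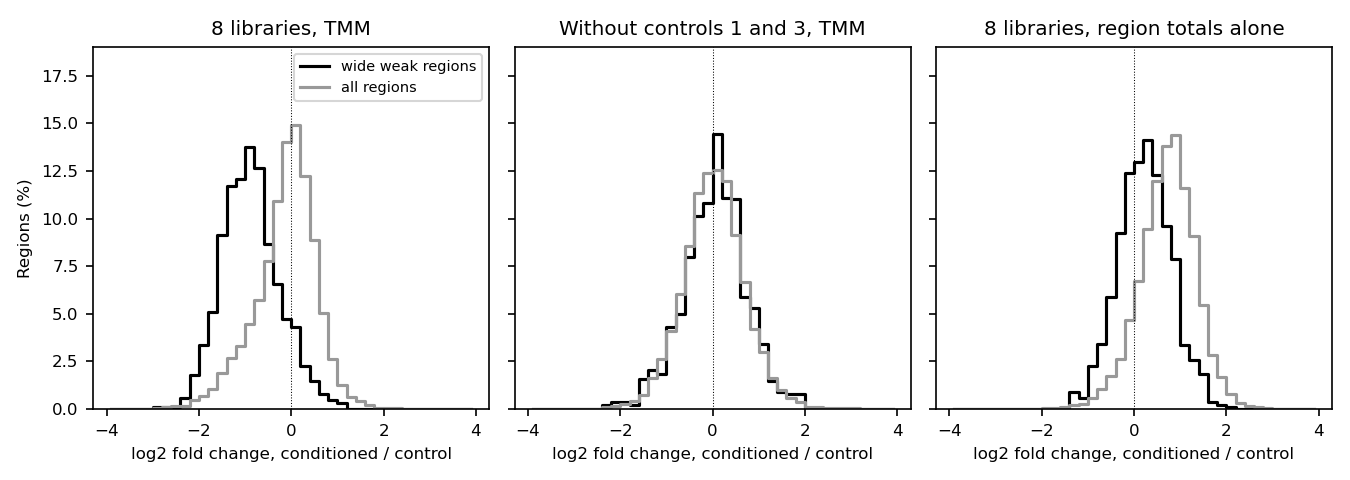
Distribution of the log2 fold change, conditioned over control (x axis, bins of 0.2), as percent of regions (y axis) for the wide weak regions (black) and all regions (grey). The left panel uses 8 libraries with TMM scaling (medians -0.92 and -0.05), the middle panel leaves out control replicates 1 and 3 (0.07 and 0.02), and the right panel uses 8 libraries scaled to region totals (0.23 and 0.75).

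Scaling to region totals moved all regions upwards. On that scale, the median log2 fold change was 0.23 in members and 0.75 over all regions, and 21 members had an unadjusted p below 0.05, all higher (2.06%, background 9.65% higher and 0.345% lower). The median of members minus that of all regions was -0.87 with TMM and -0.52 with totals, so the sign turned for members but not relative to other regions. DESeq2's Wald test called 12 of the 1003 members it gave an adjusted p, all lower (1.2%; background 0.341%). Their median log2 fold change in edgeR's fit was -2.10, and -1.36 without control replicates 1 and 3; since the 12 were picked as lower on these libraries, the second value is no separate check.

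The 6 members with the smallest p among the lower ones had log2 fold changes from -2.24 to -1.67, and none passed the adjusted threshold (adjusted p = 0.605 for each, edgeR). Because small p chose them, that their groups did not overlap is part of the choice. On chromosome 5 at 104416937 to 104418379, the values were 14.4, 8.11, 17.0 and 6.19 CPM (controls 1 to 4) and 4.58, 2.52, 2.56 and 1.97 CPM (conditioned 1 to 4). All controls lay above all conditioned libraries, with replicates 1 and 3 the highest. The log2 fold change was -1.97 (SE 0.49, edgeR unadjusted p = 0.000986), and -1.31 without control replicates 1 and 3.

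On chromosome 11 at 117493379 to 117494931, the values were 6.93, 3.27, 3.10 and 7.77 CPM (controls 1 to 4) and 1.59, 0.681, 1.29 and 1.13 CPM (conditioned 1 to 4). Here control replicate 4 was the highest library and control replicate 3 the lowest control. The log2 fold change was -2.16 (SE 0.54), and -2.24 without control replicates 1 and 3 (edgeR unadjusted p = 0.00139). Among the 6 it was the member whose estimate did not shrink without them. On chromosome 13 at 23484731 to 23486240, the values were 15.4, 3.79, 3.84 and 8.85 CPM (controls 1 to 4) and 2.71, 1.39, 1.35 and 1.27 CPM (conditioned 1 to 4). The estimate of -2.24 (SE 0.57) became -1.92 without the 2 libraries. Both estimates lay further from 0 than those of the remaining 3 members in the fit without the 2 libraries, where the 6 ran from -2.24 to -1.24.

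Those 3 members lay on chromosomes 10 and 12. On chromosome 10 at 24464333 to 24465567, control replicate 3 had 17.5 CPM and the other controls 2.84 to 8.11, against 1.66 to 2.35 CPM in conditioned libraries. On chromosome 12, the member at 11996155 to 11998827 averaged 14.5 ± 3.74 CPM over controls and 4.56 ± 1.94 CPM over conditioned libraries (SD, n = 4 for either). The member at 97939263 to 97941598 averaged 11.8 ± 3.45 and 3.44 ± 1.47 CPM. In both, control replicates 1 and 3 were the highest libraries.

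On the higher side, the 6 members with the smallest p had log2 fold changes of 0.66 to 1.17, unadjusted p from 0.0675 to 0.152 and adjusted p from 0.659 to 0.751 in edgeR, and the groups overlapped in each. On chromosome 9 at 64948085 to 64950085, the values were 2.42, 3.58, 4.59 and 4.95 CPM (controls 1 to 4) and 5.48, 13.6, 4.26 and 7.25 CPM (conditioned 1 to 4). Conditioned replicate 2 was highest, and conditioned replicate 3 lay among the controls. On chromosome 1 at 3660889 to 3662277, conditioned replicate 2 had 47.9 CPM and the other 3 conditioned libraries 3.36 to 5.80 CPM, against 3.53 to 9.93 CPM in controls. The log2 fold change of 1.17 there was -0.61 without conditioned replicate 2. On chromosome 1 at 37775494 to 37777094, the values were 3.78, 3.45, 5.61 and 2.52 CPM (controls 1 to 4) and 5.97, 7.54, 8.45 and 4.26 CPM (conditioned 1 to 4). All conditioned libraries but replicate 4 lay above every control. The other 3, on chromosome 4 at 116549392 to 116550842, chromosome 13 at 55936956 to 55938519 and chromosome 17 at 35973810 to 35975417, had log2 fold changes of 0.66, 0.83 and 1.07.

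**Figure D5:**
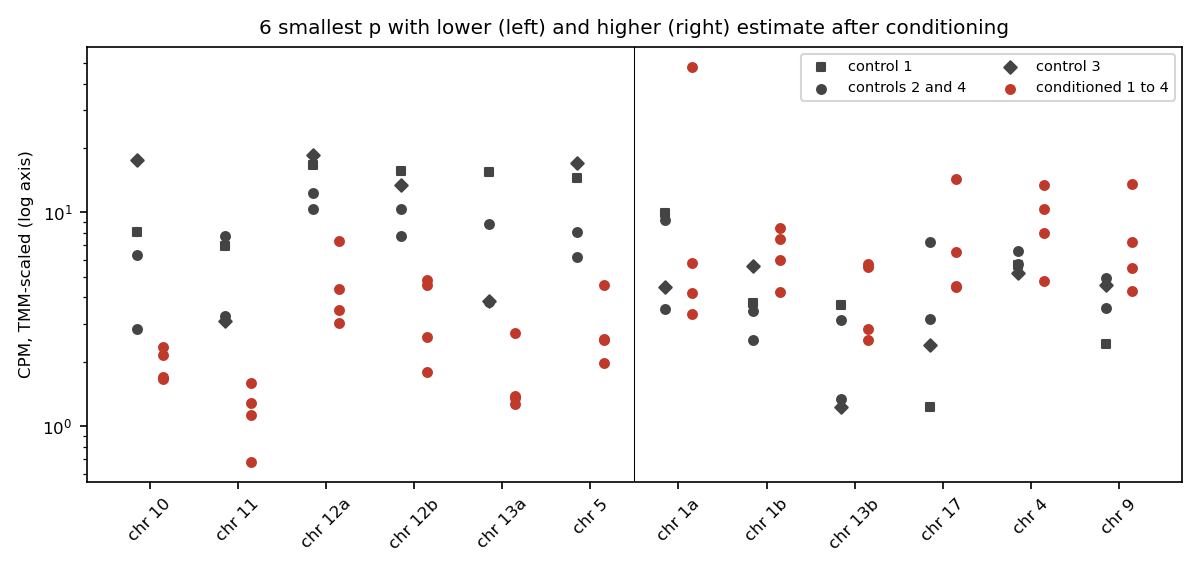
TMM-scaled CPM (log axis, y) of the 6 wide weak regions with the smallest p and a lower estimate after conditioning (left of the line) and the 6 with a higher one (right), 1 point per library, regions marked by chromosome. Grey points are controls (square, replicate 1; diamond, replicate 3) and red points conditioned libraries; groups do not overlap on the left and overlap on the right, and the highest point, 47.9 CPM, is conditioned replicate 2.

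The 8 widest members were 3632 to 4283 bp wide. Control replicate 1 was the highest library in all 8, with 16.0 to 70.4 CPM, as in 72.9% of all members. Conditioned replicate 4 was the lowest in 6, and in 34.8% of all members. The widest, on chromosome 17 at 41996723 to 42001006, had 31.3, 7.53, 19.1 and 5.33 CPM (controls 1 to 4) and 11.5, 7.34, 4.72 and 2.98 CPM (conditioned 1 to 4). The groups overlapped, and controls 2 and 4 lay within the conditioned range. Its log2 fold change of -1.25 (SE 0.57) became 0.03 without control replicates 1 and 3. The next, on chromosome 8 at 74357839 to 74362039, had 70.4, 15.9, 29.8 and 9.31 CPM (controls 1 to 4) and 29.6, 12.6, 10.2 and 8.51 CPM (conditioned 1 to 4). Another listed region lay only 0.135 kb away from it. The third, on chromosome 18 at 83490793 to 83494802, had 32.1 CPM in control replicate 1 and 2.97 to 13.2 CPM elsewhere. All 8 had negative estimates with 8 libraries (-1.70 to -0.68), and 2 had negative estimates without the 2 control libraries. These 2 were the members of chromosome 2 at 154974721 to 154978685 (-0.40) and chromosome 18 at 41996931 to 42000563 (-0.74).

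Just inside 1200 bp were 2 regions of 1200 bp, on chromosome 3 at 53305317 to 53306517 and at 112943217 to 112944417, and just outside were regions of 1197 bp (chromosome 11, 83368532 to 83369729) and 1191 bp (chromosome 14, 97635626 to 97636817). At the z limit, the members of chromosome 14 at 8490413 to 8491763 and chromosome 16 at 8737764 to 8739414 had mean z scores of 49.99 and 49.96. The regions of chromosome 8 at 7502080 to 7504135 and chromosome 5 at 23356051 to 23357293 had 50.003 and 50.04. The 403 regions of the same width and carriers with a z score of at least 50 had a median ratio of counts per kb to all regions of 0.762 in control replicate 1 and 0.525 to 0.634 in the other libraries, so that control replicate 1 stood less apart there.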

How the data were processed

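The 8 Sono-seq libraries of mouse hippocampus were grouped by the labels into 4 control and 4 conditioned samples. Reads were aligned with Bowtie2 to mm9, per the submitters' processing notes; for the peak caller and the counting tool, the name is not given in the sources used here. The authors deposited read counts per library over 11304 regions, a list of peaks with a z score for each library, and a table of regions with their mean z score and number of carriers, both as deposited. Number of carriers equalled the libraries with a peak z score of at least 30 in all 11304 regions, and the mean z score equalled the mean of the carriers' highest peaks within 0.01 in 8335. Positions are printed as deposited.

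Counts were fitted over all regions with edgeR 4.0.16 (R 4.3.3; TMM, quasi-likelihood test, Benjamini-Hochberg adjustment, threshold 0.05), with DESeq2 1.42.0 as an alternative; the script was tested on simulated data. Summaries used Python 3.11.15. A filter on low counts removed 0 regions. Total counts per library and counting intervals are given with the values they limit, and cover counting error only. Other scalings, thresholds of the choice, distances, a replicate block and leaving out libraries were tried. The regions named are the 8 widest members, the 6 with the smallest p in each direction, the 4 most and 4 least variable, the densest run and those nearest each threshold. Members and lists were chosen with earlier results of these data known. Gene lists and sequences were not used, because the gene tables at hand are of another build than mm9.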

Additional observations from a re-analysis of the deposited data

Results flagged for a closer look

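Among 80 groups of 4 libraries examined, 11 had a highest or lowest library whose gap to the nearest other exceeded Dixon's critical share of the group's range (13.8%); chance flags about 1 in 20 such groups, but many of these measures come from the same libraries, the carriers and z scores were used to choose the members, and some regions were named for their high variation, so the 2 rates are not a test.

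Of the conditioned libraries, replicate 2 carried 280 members and the others 815 to 890. Its median highest z score over members was 18.7, against 34.6 to 36.7 in the others. Its median coverage of the flanks was 10%, against 16% to 17%. On chromosome 1 at 3660889 to 3662277 it had 47.9 CPM, against 3.36 to 5.80 CPM.

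Conditioned replicate 1 stood above the other conditioned libraries in 4 named regions. It had 2.71 CPM on chromosome 13 at 23484731 to 23486240 (others 1.27 to 1.39), 9.05 CPM on chromosome 16 at 8737764 to 8739414 (others 7.99 to 8.17), 4.89 CPM on chromosome 3 at 6980189 to 6981439 (others 0.818 to 1.45) and 7.34 CPM on chromosome 4 at 22998122 to 22999530 (others 2.53 to 2.86).

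Control replicate 1 stood above the other controls in 3. It had 26.7 CPM on chromosome 4 at 22998122 to 22999530 (others 3.72 to 5.87), 21.9 CPM on chromosome 7 at 50996163 to 50997682 (others 0.808 to 3.52) and 22.1 CPM on chromosome 8 at 40990122 to 40991980 (others 1.06 to 2.40).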

How the results depend on the processing

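The median log2 fold change of members (-0.92) turned to 0.23 with totals alone and to 0.069 without control replicates 1 and 3, and ran from -1.17 to -0.30 when 1 library was left out. Members at unadjusted p below 0.05 in either direction (24.5%, background 7.79%) became 2.06% with totals (background 10%). Without control replicates 1 and 3 they were 6.19% (background 8.38%), and with 1 library left out 9.82% to 39.4%. The share was 9.82% (background 9.5%) without control replicate 1 and 39.4% (background 10.4%) without control replicate 4. Without conditioned replicates 2, 3 and 4 it was 15.0%, 14.7% and 10.1% (background 4.65%, 5.93% and 4.95%). DESeq2 called 12 members where edgeR called 0. The median coefficient of variation (0.800) was 0.478 with totals, 0.479 without control replicates 1 and 3, and 0.531 to 0.858 with 1 library left out. The share of members within 50 kb of another (11.2%) was 7.66% among those with 4 carriers, 4.26% with 5, 7.20% at 1500 bp or wider, 5.80% within 10 kb and 36.9% within 500 kb; the first 3 hold fewer members. The conditioned share of counts (4.35%) was 2.57% and 1.77% for members with 4 and 5 carriers. It was 6.13% with z scores below 60 and 2.62% at 1500 bp or wider. The control share (7.10%) was 2.78% with 5 carriers. Each share is a sum over the chosen regions, so it must fall with a stricter choice and rise with a looser one. Carriers averaged 69.0% of members per conditioned library and 28.0% at a z score of 40; controls averaged 39.7%, 63.8% at 20 and 15.8% at 40. The region on chromosome 1 at 3660889 to 3662277 turned to -0.61 without conditioned replicate 2, and reached 1.51 without conditioned replicate 1. For the 12 regions named for small p, 197 alternative values kept direction and side of the threshold and 6, all from DESeq2, passed it. Titles of both groups share replicate numbers and the library numbers 1, 4, 6 and 9. For the pairing, correlations were taken on another measure than the log2(CPM + 0.5) used above. On it, same-numbered libraries had r of -0.0603 to 0.269 over all regions, and other pairs -0.344 to 0.276. There 1 of 4 controls matched its own number best. Over members, same-numbered libraries had r of 0.340, 0.0549, -0.0508 and 0.197 (replicates 1 to 4) on that measure. With log2(CPM + 0.5), same-numbered libraries had r of 0.590, 0.698, 0.631 and 0.776 over all regions (replicates 1 to 4). Over all pairs the range was 0.357 to 0.838. Neither set of correlations can decide whether the numbers pair the libraries. With the replicate block in edgeR the median log2 fold change was -0.71 in members and 0.04 over all regions. At unadjusted p below 0.05, 202 members were then lower (19.8%, background 4.55%) and 1 higher (0.0982%, background 1.31%). After adjustment 0 passed (background 0%). The cause of these changes was not tested. Count filters removed no region, so the fits with other filters repeat the main fit, and their values among the 197 could not differ. Depth limits control replicate 3 most, with a median of 99 counts per member.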
